A study of Drosophila melanogaster with 2 samples.

Results

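Oxidative phosphorylation is carried out by the nuclear-encoded and mitochondrial-encoded subunits of 5 protein complexes, and the nuclear genes of these subunits were examined as a group in a map of CG32772 binding in Drosophila melanogaster. They were taken by name: protein-coding genes whose dm6 symbol begins with ND- (complex I), Sdh (complex II), UQCR- (complex III), COX and a digit (complex IV) or ATPsyn (the ATP synthase, complex V). The rule gave 88 of the 13968 protein-coding genes on the chromosome arms: 40 of complex I, 8 of complex II, 9 of complex III, 16 of complex IV and 15 of complex V. By their symbols, 63 are subunits, 24 are extra copies (paralogs), and 1 (Sdhaf3) is an assembly factor. Paralogs were taken as symbols that end in L or in L and a digit, except ND-MNLL, which was counted as a subunit. A gene was called bound when the summit of a peak fell within 500 bp of 1 of its annotated transcription start sites (TSSs). The naming rule used no measured value, but it was chosen with earlier results of these data known.

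The data came from chromatin immunoprecipitation and sequencing (ChIP-seq) of whole embryos, aged 0 to 24 h, from a transgenic strain that carries CG32772 fused to eGFP. DNA attached to the fusion was recovered through its GFP part, from chromatin sonicated to 200 to 800 bp. The study has 1 group with 2 biological replicates, so bound genes are described beside other genes and no condition is compared. All cells of the embryo were pooled, the fusion is made from an inserted transgene, and neither transcription nor the cell type in which a site is bound was measured. The deposited values are peak lists, with 4746 peaks in the list called jointly from both libraries, 3048 in the list of replicate 1 and 3562 in that of replicate 2.

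The respiratory chain passes electrons from NADH (through complex I) and succinate (through complex II) to complex III, cytochrome c and complex IV, which reduces oxygen. Complexes I, III and IV pump protons across the inner mitochondrial membrane, and the ATP synthase uses the resulting gradient to make ATP. Because the subunits are needed in fixed proportions, the joint control of their genes has long been studied. In the compact fly genome many housekeeping genes start close to a neighbour on the opposite strand, so that one stretch of DNA serves as the promoter of both.

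Of the 88 genes, 13 (14.8%) had a promoter summit in the joint list, against 17.1% of all protein-coding genes. In the lists of the single libraries, 10 (11.4%) were bound in replicate 1, where the share of all genes was 12.9%, and 11 (12.5%) in replicate 2, where it was 14.1%. A second, more inclusive joint list gave 14 (15.9%), against 17.8% of all genes. In every list the share was close to that of all genes, and slightly below it, so the count by itself sets the group apart from nothing. The 13 bound genes were 8 of complex I, 3 of complex IV (COX5A, COX5B and COX6B) and 2 of complex V (ATPsynE and ATPsynCF6). All 13 are subunits with a divergent partner, a gene on the opposite strand whose start site lies within 500 bp and points away.

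The sequence at the bound summits was read from the reference to show what these promoters look like. Windows of the summit base and 50 bp on either side were used, and the stretches printed are the parts of those windows that hold no annotated untranslated region, on the plus strand of dm6. Capitals mark uninterrupted runs of 6 or more A or T. ND-ASHI (chrX:6679320-6679420) is shown as the strongest site of the group, ND-24 (chrX:17632180-17632244) and ND-23 (chr3R:15837181-15837281) as the windows richest in A and T, ND-SGDH (chr3L:12138587-12138687) for its long A/T run, and ATPsynCF6 (chr3R:23356138-23356238) as the weakest bound site.
ND-ASHI: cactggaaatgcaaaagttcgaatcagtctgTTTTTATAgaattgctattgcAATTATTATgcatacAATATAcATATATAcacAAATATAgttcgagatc
ND-24: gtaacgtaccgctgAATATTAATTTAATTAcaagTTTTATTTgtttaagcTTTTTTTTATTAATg
ND-23: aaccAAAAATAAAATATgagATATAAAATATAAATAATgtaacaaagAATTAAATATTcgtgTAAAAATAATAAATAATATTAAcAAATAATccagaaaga
ND-SGDH: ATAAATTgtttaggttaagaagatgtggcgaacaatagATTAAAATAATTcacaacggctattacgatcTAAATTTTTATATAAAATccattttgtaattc
ATPsynCF6: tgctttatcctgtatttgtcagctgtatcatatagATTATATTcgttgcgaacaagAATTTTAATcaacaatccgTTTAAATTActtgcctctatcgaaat
The summit is base 51 of each of these stretches, counted from the left end, except in ND-24, where it is base 15.

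At COX5B (chr2L:6557503-6557576) and COX6B (chrX:19744367-19744430), the windows were of a different base composition, and their longest A/T run was 4 bases in each. They are shown against the 5 above, on the same strand and with the same use of capitals, of which they have none.
COX5B: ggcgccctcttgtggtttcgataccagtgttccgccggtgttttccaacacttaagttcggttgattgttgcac
COX6B: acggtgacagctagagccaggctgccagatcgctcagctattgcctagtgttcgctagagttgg
The summit is base 24 in COX5B and base 51 in COX6B.

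A divergent pair without a summit serves as a contrast. ND-B16.6, a complex I subunit, and kdn, the citrate synthase gene of the tricarboxylic acid cycle, have start sites 228 bp apart, and the 227 bp between them (chrX:6350402-6350628, plus strand, same capitals) held no summit of the joint list.
ND-B16.6 to kdn: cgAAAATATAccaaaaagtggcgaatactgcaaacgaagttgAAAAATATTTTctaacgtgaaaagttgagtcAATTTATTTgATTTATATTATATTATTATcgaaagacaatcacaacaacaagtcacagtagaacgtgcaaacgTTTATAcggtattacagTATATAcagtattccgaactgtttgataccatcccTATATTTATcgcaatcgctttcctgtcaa
This stretch has a GC content of 31.7% and an A/T run of 19 bases, and both values lie within the range of the bound windows, although the stretch is longer than a window.

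The GC content of the full windows had a median of 30.7% over the 13 bound genes, against 33.7% over all 4699 arm summits, whose quartiles were 27.7% and 42.6%, and 31.7% over summits at genes with a divergent partner. ND-23 (14.9%) and ND-24 (17.8%) were lowest, followed by ND-SGDH (24.8%), ND-MWFE (26.7%), ND-51 (27.7%) and ND-ASHI (28.7%). The complex IV genes spanned the widest range, with COX5A at 31.7% and COX5B and COX6B at 51.5% and 58.4%, above the upper quartile of all summits. The longest A/T run was 22 bases in ND-23, 18 in ND-SGDH, 16 in ND-24 and 15 in ND-PDSW, and its median over the 13 was 10, the same as over all summits. Promoters of the group were AT-rich whether bound or not. Over the 300 bp from 250 before to 50 after a start site, the median GC content was 34.7% in bound genes, 34.5% in unbound genes with a divergent partner and 33.3% in genes without one, against 38.0% in all genes.

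**Figure D1:**
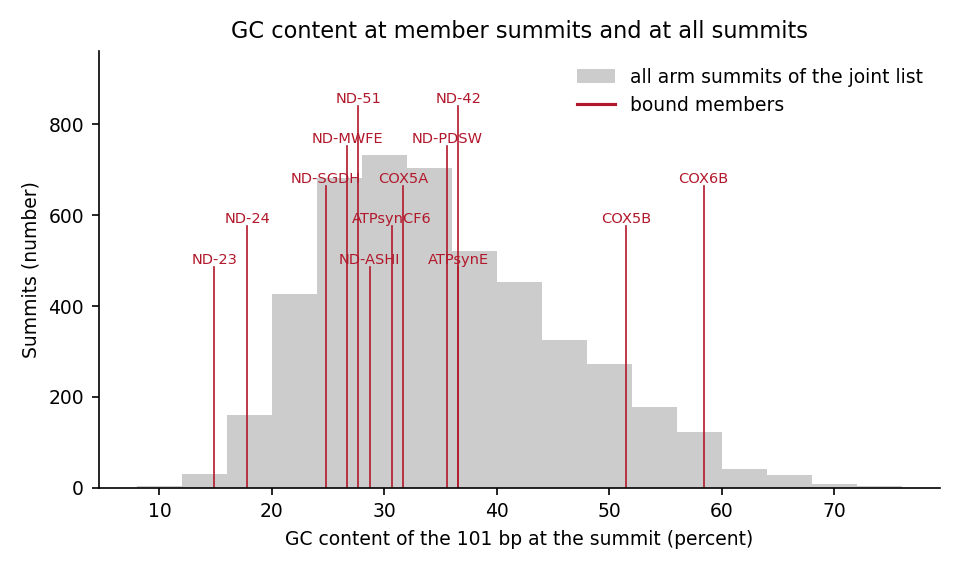
Number of joint-list summits (y axis) by GC content in percent of the window of 50 bp on either side of the summit (x axis), in grey for all arm summits. Each red line is the window of 1 bound oxidative phosphorylation gene, and its height carries no value. 11 of the lines lie at or below 36.6%, while COX5B and COX6B stand apart at 51.5% and 58.4%.

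Short words known from fly promoters were searched on both strands, each with its reverse complement, as a description of letters and not of sites. The words TATCGATA (of the DNA replication-related element, bound by Dref), GAGAG (of GAGA factor), CACGTG (an E-box), CAGGTAG (of Zelda) and GGTCACAC (the core of the motif of M1BP) were in none of the 13 summit windows. Over all 4699 summits they were in 1.21%, 10.6%, 0.766%, 0.511% and 0.958%. CAGCTG was in the windows of ATPsynCF6 and ND-42 and in 3.85% of all summits. One of the spellings TTACATAA, TTACGTAA and TTATATAA was in the window of ND-SGDH, and in 2.23% of all summits. In the 300-bp promoters of the whole group, GGTCACAC was in 16 of 88 (18.2%), against 7.69% of the promoters of all genes, and 4 of the 16 belong to bound genes. CAGCTG was in 23.9% against 17.6%, and TATCGATA in 10.2% against 9.36%. GAGAG was in 22.7% against 29.7%. These promoter shares were not split by divergent partner, which is more common in the group than in all genes, and no difference was tested. CACGTG and CAGCTG are both spellings of the wider E-box CANNTG, and no word contains another.

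Complex I, the entry point for electrons from NADH, held 8 of the bound genes and is also the largest set, so that its share of 8 in 40 (20.0%) lay near the 17.1% of all genes. It has a catalytic core that bacteria also have and a set of accessory subunits that stabilise it. ND-51 and ND-24, which encode the core subunits that in the human enzyme are NDUFV1, the NADH-oxidising flavoprotein, and its neighbour NDUFV2, were both bound. So was the core gene ND-23 (human NDUFS8, an iron-sulphur subunit). Of 7 nuclear core genes, 3 were thus bound, and 5 have a divergent partner. The other 4 (ND-75, ND-49, ND-30 and ND-20) were not bound. ND-49 lies on chromosome 4, where the joint list held no summit.

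ND-24 (FBgn0030853, X, peak at positions 17632087 to 17632275) had an authors' signal of 344 in the joint list, 168 in replicate 1 and 171 in replicate 2, at ranks 440, 439 and 489 of those lists. The scale of the signal is not stated and differs between joint and single lists, so ranks within a list carry the comparison. ND-51 (FBgn0031771, 2L, 6062701 to 6063050) had 166, with 88.6 and 75.7 in the libraries. ND-23 (FBgn0017567, 3R, 15837056 to 15837405) had 83.2 in the joint list and was in neither library's own list. It did have a call in each library's ranked list, at 41.4 in replicate 1 and 45.2 in replicate 2. Lists are cut not on signal but on the irreproducible discovery rate, the authors' measure of how poorly the rank of a peak repeats, whose -log10 value must be at least 2. The ND-23 calls had 1.786 and 1.513. The 3 core genes thus cover most of the group's range of strength.

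Among the accessory subunits, ND-ASHI (FBgn0029888, human NDUFB8, X, 6679262 to 6679484) had the strongest promoter signal of all 88 genes. Its signal was 434 in the joint list, 218 in replicate 1 and 209 in replicate 2, at ranks 288, 273 and 333. ND-MWFE (FBgn0085468, human NDUFA1, 2R, 13158449 to 13158564) followed ND-24 with 316, and had 156 in each library. The libraries gave these leading sites similar ranks. ND-42 (FBgn0019957, human NDUFA10, 3R, 22027280 to 22027629) had 150, with 66.6 and 69.7. ND-SGDH (FBgn0011455, human NDUFB5, 3L, 12138462 to 12138811) had 128 and was in the list of replicate 1 only, at 69.3. The ND-SGDH promoter held 2 joint summits, and the stronger one, at -53 bp, is given here, with that of replicate 1 at -46 bp. The strongest call of replicate 2 at this promoter lay elsewhere, at -165 bp. It had a signal of 52.0 and a -log10 rate of 0.1120, which left it out. ND-PDSW (FBgn0021967, human NDUFB10, 2L, 3465858 to 3466207) had 80.4 and was in neither own list, with calls of 38.6 and 39.9 whose -log10 rates were 1.426 and 1.539.

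Complex IV, cytochrome c oxidase, had 3 bound genes of 16 (18.8%), near the 17.1% of all genes. With a divergent partner the count was 3 of 7 (42.9%), against 33.7% of all genes with one. All 3 encode nuclear subunits around the mitochondrial-encoded catalytic core. COX5B (FBgn0031830, 2L, 6557351 to 6557700) had a joint signal of 163, with 73.4 in replicate 1 and 83.7 in replicate 2. COX5A (FBgn0019624, 3R, 11819327 to 11819676) had 158, with 73.9 and 88.3. Their ranks in the joint list were 1494 and 1551. COX6B (FBgn0031066, X, 19744242 to 19744591) had 93.2 and was in the list of replicate 2 only, at 49.1. Its strongest replicate 1 call was 35.8.

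The ATP synthase had 2 bound genes of 15 (13.3%), near the 17.1% of all genes. With a divergent partner the count was 2 of 9 (22.2%), against 33.7% of all genes with one. ATPsynE (FBgn0038224, 3R, 14326815 to 14327164), which encodes subunit e of the membrane part, had a joint signal of 152 and 80.3 in each library. ATPsynCF6 (FBgn0016119, 3R, 23356013 to 23356362), which encodes coupling factor 6 of the stalk that holds the catalytic head, had 72.6, was absent from the replicate 1 list, and had 45.0 in that of replicate 2. Genes of the catalytic head and rotor that carry the ATPsyn name, such as ATPsynbeta and ATPsyngamma, were not bound. ATPsynbeta lies on chromosome 4, where the joint list held no summit. With replicate 1 alone, the complex V count is 1.

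Neither complex II, the succinate dehydrogenase that links the chain to the tricarboxylic acid cycle, nor complex III had a bound gene. With 0 of 8 and 0 of 9, shares of up to 37.5% and 33.3% are allowed, so that neither can be told from the 17.1% of all genes at this size. Limits of this kind cover counting error only. Few of these genes have a divergent partner: SdhC in complex II, and UQCR-C1 and UQCR-6.4 in complex III. The 24 paralogs also gave 0, which allows up to 12.5%. Of them, 3 have a divergent partner and 21 do not, and 10.8% of all genes without a partner were bound. The paralogs thus cannot be told from genes without a partner at this size. Fly copies of this kind are known for expression in the male germ line, and whether that bears on the count was not tested. The 63 subunits alone gave 13 (20.6%).

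**Figure D2:**
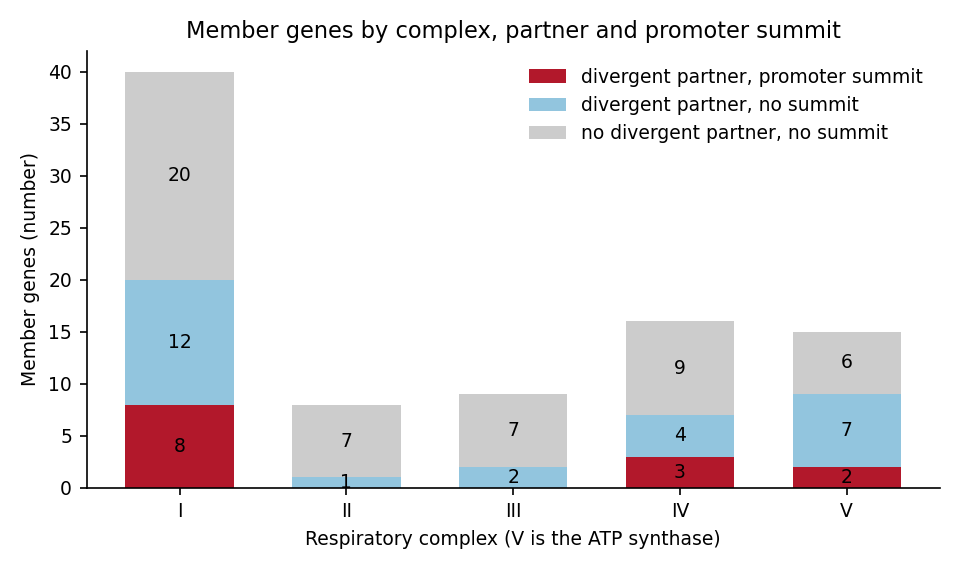
Number of genes (y axis) in each of the 5 complexes (x axis), divided into genes with a divergent partner and a promoter summit, genes with a partner and no summit, and genes with neither. The bound genes are 8 in complex I, 3 in complex IV and 2 in complex V, and the class of bound genes without a partner is empty.

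The partner divided the group. Of the 39 genes with a divergent partner, 13 (33.3%) were bound, close to the 33.7% of all genes with a partner. Of the 49 genes without one, none was bound, which allows a share of up to 6.12%, while 10.8% of all genes without a partner were bound. Part of these 49 are the 21 paralogs without a partner: among subunits alone the count is 0 of 27, which allows up to 11.1%. These limits treat genes as independent draws, which was not shown, so they do not set the group apart from other genes. The difference between the group and other genes was not tested. A partner was more common in the group than elsewhere, at 44.3% of the 88 genes and 57.1% of the 63 subunits, against 27.3% of all genes and 12.5% of the paralogs. The 0 depends on the definition: with partners limited to 250 bp, 4 of 63 genes without one (6.35%) were bound, against 14.8% of all such genes. With promoters of 1000 bp, SdhA was bound without a partner. With partners allowed up to 1000 bp, the count stayed at 0 of 44 genes, against 9.51% of all such genes.

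The partners of the 13 bound genes are 14 genes, and the same summit lay within 500 bp of a start site of each. A summit there cannot be given to one gene of the pair. It was nearer to the respiratory gene in 5 of 13 pairs (38.5%) and nearer to the partner in 8, while over all bound genes with a partner the summit was nearest to the gene itself in 53.7%. Counting a summit only for its nearest gene leaves 5 bound genes of the 88 (5.68%), against 12.7% of all genes under the same rule, and none of complex IV. The start sites of a pair lay 20 to 302 bp apart in bound pairs, with a median of 221 bp, and 21 to 426 bp in the 26 unbound pairs, with a median of 214 bp. These distances are the smallest between any start sites of the pair, and hardly differed between bound and unbound pairs. Over all genes with a partner the medians were 257 bp when bound and 232 bp when not.

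Some of the partners also serve mitochondria. ND-ASHI is paired with Fum1, which encodes fumarase, an enzyme of the tricarboxylic acid cycle, and ND-42 with Cchl, which encodes the lyase that attaches heme to cytochrome c. The other partners have various roles. ND-24 faces corolla, a gene of the synaptonemal complex of meiosis, ND-23 faces spn-E, a helicase gene of the piRNA pathway, and ND-PDSW faces msl-2, the male-specific subunit of the dosage compensation complex. ND-MWFE faces TppII, a peptidase gene, ND-SGDH faces RhoGAP68F, and ND-51 faces the unnamed gene CG13994. COX5A faces glo, which encodes an RNA-binding protein, COX5B faces IFT52 of intraflagellar transport, and COX6B faces both Rpp20 and CG33932, which share a start site. ATPsynE faces Afti, and ATPsynCF6 faces Sec13, a gene of vesicle coats and nuclear pores.

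Summits lay upstream of the nearest start site of the respiratory gene in 11 of 13 cases (84.6%), against 85.3% of all bound genes and 88.2% of bound genes with a partner. The median position was -119 bp, against -130 bp and -123 bp. The exceptions were ND-24, whose summit lay 105 bp downstream of a start site, and ATPsynE, 43 bp downstream. Upstream positions ran from -53 bp in ND-SGDH to -274 bp in COX5B, the farthest inside the limit of 500 bp, and the nearest unbound genes lay well outside it, SdhA at 879 bp, ND-B8 at 898 bp and ATPsynD at 956 bp. At COX5B, COX6B, ND-MWFE and ND-42 the summit sat within 25 bp of the partner's start site. By annotation, 6 summits lay between genes (ATPsynCF6, COX5B, COX6B, ND-23, ND-51 and ND-SGDH). Another 4 were in introns, of COX5A and ND-24 themselves and of the partners Fum1 and TppII, and 3 were in a 5' UTR, that of ATPsynE itself, of Cchl at ND-42 and of msl-2 at ND-PDSW. At ND-ASHI the start sites nearest to the summit, 252 bp from it in ND-ASHI and 270 bp in Fum1, lie outside the limit for a pair, and the pair rests on other start sites 164 bp apart.

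**Figure D3:**
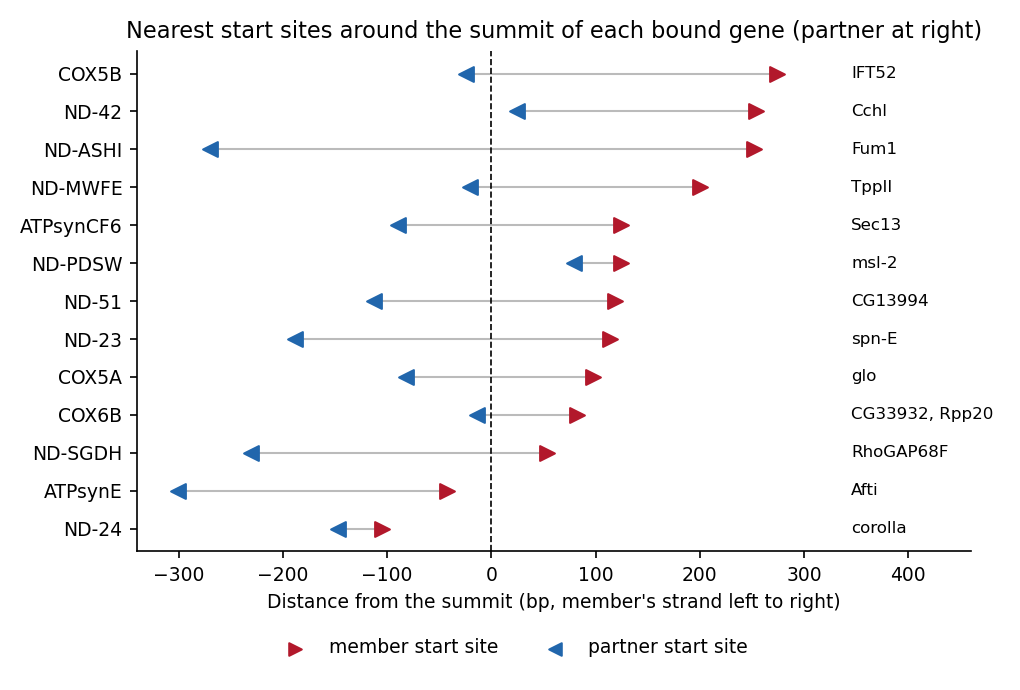
Position of the nearest start site of each bound gene (red) and of its partner (blue) relative to the joint-list summit at 0 (x axis, in bp, drawn so that the named gene is transcribed to the right). In 9 of the 13 genes the summit lies between these nearest start sites. In ND-24 and ATPsynE it lies downstream of that of the respiratory gene, and in ND-42 and ND-PDSW downstream of that of the partner.

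Both libraries placed 8 of the 13 summits (61.5%), against 62.6% of all bound genes. These were the 8 strongest, from ND-ASHI down to ND-42. Their summits lay 9 to 42 bp apart between libraries, with a median of 20.5 bp. ND-SGDH was in replicate 1 only, COX6B and ATPsynCF6 in replicate 2 only, and ND-23 and ND-PDSW in neither. The promoter signals of the 13 had a median of 152, against 146 for all bound genes and 166 for bound genes with a partner, and the median percentile in the joint list was 65.7, against 63.5 and 69.0. In the own list of replicate 1 the 9 of them present had a median percentile of 52.3, and in that of replicate 2 the 10 present had 53.6, against 62.3 and 64.1 for the genes bound in the joint list that those lists also hold.

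**Figure D4:**
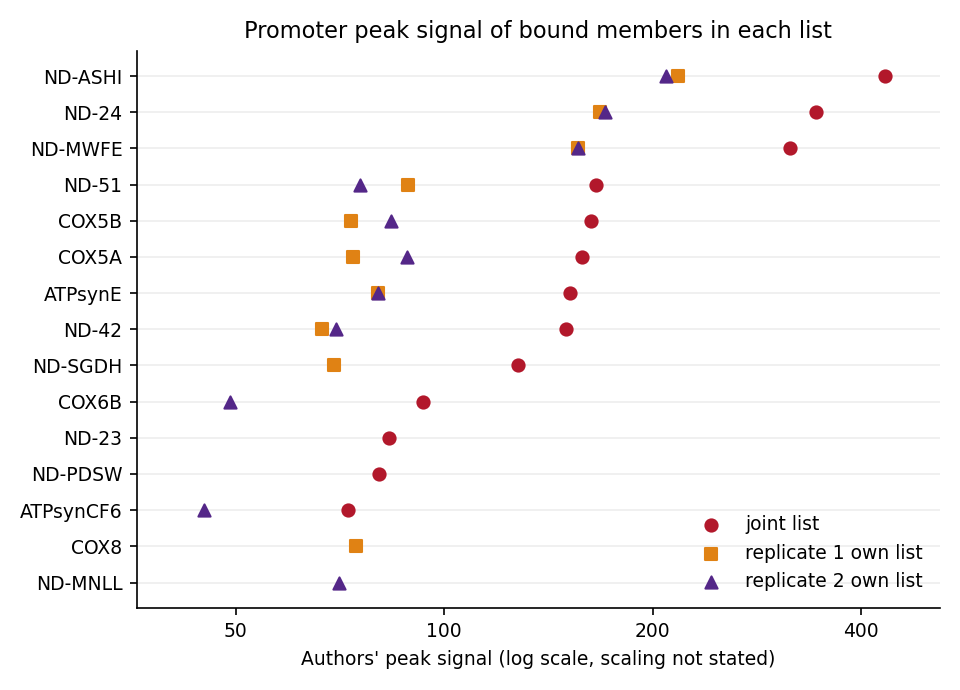
Signal of the promoter peak of each gene (x axis, log scale, the authors' value) in the joint list (red), in the list of replicate 1 (orange) and in that of replicate 2 (purple). The 8 genes from ND-ASHI to ND-42 have a point from each list, and COX8 and ND-MNLL have a point from 1 library and none from the joint list.

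In 2 genes the single libraries and the joint list differed the other way. COX8, a small complex IV subunit, was bound in replicate 1 only, with a signal of 74.7 at rank 1600 and a summit 48 bp upstream, and had no call of any strength in the joint list or in replicate 2. Its partner is VhaM9.7-b, a proton pump gene. ND-MNLL, an accessory subunit of complex I (human NDUFB1) paired with p115, was bound in replicate 2, with a signal of 70.5 at rank 2045, and in the more inclusive joint list, with 94.6. Its replicate 1 call, 27.5, was weak. In the main joint ranking the -log10 discovery rate of ND-MNLL was 1.665, under the cut of 2. On either side of that cut were ATPsynCF6, lowest inside at 2.403, and COX7B, just outside at 1.997 with a signal of 64.1, followed by ND-B22 at 1.714.

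Below the cut most of the group had some call. The ranked joint list, which keeps weak calls, placed 1 within 500 bp of 65 of the 88 genes (73.9%), against 72.6% of all genes, so that a weak call says little by itself. Over the 75 unbound genes, 52 (69.3%) had one, with a median signal of 26.7, against 67.0% and 30.4 for all unbound genes. Unbound genes with a divergent partner (19 of 26 with a call, median 26.9) and genes without one (33 of 49, median 26.5) hardly differed in this respect. Complex III was lowest, with calls at 4 of 9 genes (44.4%). The strongest calls at unbound genes were those of ND-MNLL (94.6), COX7B (64.1), ND-B22 (55.2), SdhBL (54.1) and ATPsyngamma (51.7). The weakest bound gene, ATPsynCF6 at 72.6, was below ND-MNLL, so that signal alone does not divide bound from unbound genes.

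**Figure D5:**
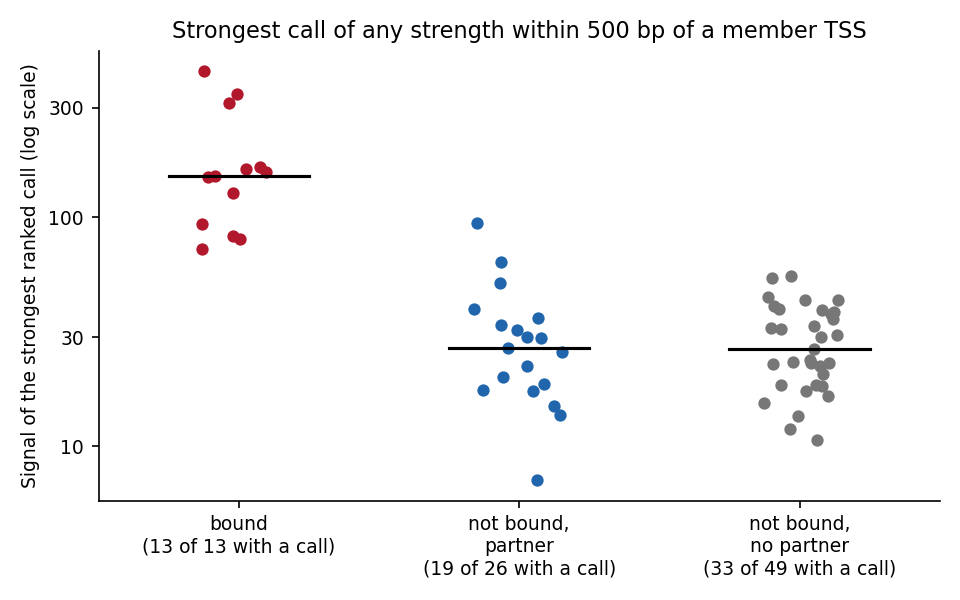
Signal of the strongest call of any strength within 500 bp of a start site (y axis, log scale, the authors' value), 1 point per gene with a call, for bound genes, unbound genes with a divergent partner and unbound genes without one. Horizontal lines are medians, 152, 26.9 and 26.5, and the point of ND-MNLL at 94.6 is the highest of the unbound genes.

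The 26 genes that had a partner and no summit were 12 of complex I, 1 of complex II, 2 of complex III, 4 of complex IV and 7 of complex V. In complex I they were ND-15 (with Pus10), ND-18 (pcm, an exonuclease gene), ND-19 (CG30161), ND-30 (CG15812), ND-39 (ZnT77C), ND-49 (Ephrin), ND-B15 (CG10151), ND-B16.6 (kdn), ND-B17.2 (Arpc5), ND-B18 (hiw), ND-B8 (Secp43) and ND-MNLL (p115). In complexes II and III they were SdhC (Tctp), UQCR-6.4 (CG42239) and UQCR-C1 (CycC). In complex IV they included COX7A (Arl2), COX7B (Sec3) and COX8 (VhaM9.7-b). In complex V they were ATPsynD (mRpL55, a mitochondrial ribosomal protein gene), ATPsynF (CG3548), ATPsynG (SCAR), ATPsynbeta (CG11076), ATPsyngamma (yata), ATPsynbetaL (CG13074) and ATPsynepsilonL (gammaSnap2). Of these 26 partners, only ZnT77C was bound, at another of its start sites. Divergent pairs of mitochondrial genes were found on both sides: Fum1 and Cchl share a summit with their respiratory gene, while kdn and mRpL55 do not.

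By chromosome arm, the bound genes were 5 of 20 on 3R, 3 of 16 on 2L, 3 of 13 on X, 1 of 17 on 2R and 1 of 20 on 3L. The shares of all genes on these arms were 18.2%, 16.3%, 17.6%, 15.1% and 18.6%, and the counts per arm are too small to set against them. ATPsynbeta and ND-49 lie on chromosome 4, where none of 80 protein-coding genes was bound. The joint list held no summit on that chromosome, and neither gene had a call of any strength in any list. Whether promoters there could be called is not shown, so the unbound state of these genes says little. Both are counted above as unbound genes with a divergent partner.

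Respiratory genes that the naming rule leaves out were checked from a list of 30 symbols, of which 25 matched a protein-coding gene and 5 were bound, beside 17.1% of all genes (33.7% of those with a divergent partner and 10.8% of those without). Of 9 further subunits and electron carriers, 3 were bound. Cyt-c-d, 1 of the cytochrome c genes, had a joint signal of 714, with 318 in replicate 1 and 391 in replicate 2, its summit 346 bp downstream of the start site, and levy, a complex IV subunit gene, had 317, with 155 and 166. The gene blw, which encodes the alpha subunit of the ATP synthase, had 211, with 110 and 98.6. The cytochrome c oxidase gene cype was in the replicate 2 list only, at 56.7. Among 7 assembly factor genes, CIA30 of complex I had 2163, with 1147 and 1044, at a promoter shared with CG7601, and Cox17, a copper chaperone gene, had 128 in the joint list and 58.5 in replicate 2, and was not in the list of replicate 1. None of 9 genes of mitochondrial transcription and DNA copy number was bound, which allows a share of up to 33.3%. Cyt-c-d, blw and Cox17 have no divergent partner, so that the 0 of 49 holds for the genes chosen by name and not for all genes of respiration.

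Ribosomal protein genes, taken by name pattern, are set beside the group with no test of the difference. Of 73 mitochondrial ribosomal protein genes, 21 (28.8%) were bound, 20 of 53 with a divergent partner (37.7%) and 1 of 20 without. Of 92 cytosolic ribosomal protein genes, 44 (47.8%) were bound, 19 of 36 with a partner (52.8%) and 25 of 56 without (44.6%). Over all genes the share was 17.1%, with 33.7% for genes with a partner and 10.8% for genes without. The respiratory genes, at 14.8% in all and 33.3% with a partner, lay nearer to all genes than to either ribosomal list. Without a partner, their share of 0 lay nearest to the 1 of 20 of the mitochondrial list.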

How the data were processed

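Per the labels, the files hold ChIP-seq peaks on dm6 from 2 libraries of 1 group, called with a control alignment as second input. Aligner, peak caller and their versions: not given in the sources used here for any list. The signal per peak and the -log10 irreproducible discovery rate are the authors' deposited values, made before deposit. The scaling of the signal is not stated, so signals were used only within a list, and ranks were computed from them. Library depth is unknown, because the lists hold no read counts.

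Start sites came from Ensembl release 115 (BDGP6.54), and sequence from RefSeq (same assembly). Peaks on the arms were kept (4699 of 4746 in the joint list). Summits were matched to start sites within 500 bp with Python 3.11.15, numpy 2.4.6 and pandas 2.3.3, and figures were drawn with matplotlib 3.10.9. The matching was tested on simulated data. Shares are descriptions, without tests between genes, and the limit behind a count of 0 is 3 counts of the total.

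The genes, lists, words and alternatives were chosen with earlier results of these data known. Named are all bound genes and their partners, unbound genes with a partner, genes whose call differs between lists, up to 5 unbound genes by strongest ranked call, and bound genes of the list of 30. The nearest genes outside 500 bp, the genes beside the discovery-rate cut, cype, and the sequences printed were picked with their values in view. The names of 1 unbound pair of complex IV are not reported here. The alternatives were the other joint list, single libraries, other widths and partner distances, the nearest gene, the upper 50% by signal and subunits alone.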

Additional observations from a re-analysis of the deposited data

How the results depend on the processing

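The count of 13 bound genes, all with a partner, was 10 to 11 when either library was left out and 14 in the other joint list. It was 10 with promoters of 200 bp (11.4%, against 11.8% of all genes), 16 with 1000 bp (18.2% against 19.8%) and 9 in the upper 50% by signal (10.2% against 10.9%). It fell to 8 when a peak had to be in both own lists (9.09% against 10.7%) and to 5 when a summit counted for its nearest gene only (5.68% against 12.7%). Complex I gave 5 and 4 under these rules, complex IV gave 0 under the nearest-gene rule, and complex V gave 1 under both rules and in the upper 50% by signal, and 1 to 2 with either library left out. The count without a partner became 1 with promoters of 1000 bp, through SdhA of complex II, which then also had 1. It became 4 with partners within 250 bp and stayed 0 with partners within 1000 bp. It was 0 for subunits alone and for paralogs and the assembly factor alone, a split added after the data were seen. The median percentile of 65.7 was 49.6 to 52.1 over those of the 88 bound in a single library, which adds COX8 or ND-MNLL, 68.5 for peaks in both, 60.9 with 200 bp and 60.3 with 1000 bp, and the upstream share was 80.0 to 85.7%. The causes were not tested. No paired analysis was possible because there is 1 group and no test. Peak lists without read counts do not show how deeply a promoter without a call was sampled, so an unbound gene is one with no call past the cut.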
